A study of Homo sapiens with 58 samples.

Results

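Transposable element (TE) peaks are the HuR binding sites whose grouped annotation in the authors' deposited peak table is TE. After 8257 repeated lines of that table were dropped, 18168 of 387214 peaks (4.69%) met this rule, and all of them carried the single finalized annotation TE. They held 244259 of the 7887093 CLIP tags counted in peaks (3.10%). The table names no repeat family for them, so Alu, LINE and other elements are not separated here.

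Transposable elements are mobile DNA sequences, most of them now immobile copies, that make up much of the human genome. Many copies sit in introns and are transcribed as part of a host gene, in either orientation, and others lie between genes. HuR (encoded by ELAVL1) is an RNA-binding protein that recognises uridine-rich and AU-rich RNA. It is mostly nuclear, shuttles to the cytoplasm, and is known for binding introns of pre-mRNA and the 3' untranslated regions (3'UTR) of mRNA, where it protects transcripts from decay. Copies of one element family can be nearly identical, so the assignment of a tag to one copy is uncertain throughout.

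The study set HuR CLIP-seq of cell compartments beside one another in Huh-7.5, a hepatocellular carcinoma line. The 12 fraction libraries came from wild-type cells without an APEX reaction, split into nuclear and cytoplasmic fractions after mock treatment or 0.5 mM sodium arsenite for 45 min, with 3 libraries in each of the 4 groups. The other 46 libraries came from lines carrying APEX, a peroxidase that tags nearby proteins with biotin, fused to a nuclear localisation signal (APEX-NLS), to a nuclear export signal (APEX-NES) or to G3BP1, a protein of stress granules (APEX-G3BP1), again mock treated or given arsenite. All APEX lines received biotin phenol and hydrogen peroxide, mock samples included, and HuR was precipitated with the same antibody in every sample. The 17 input libraries had the HuR precipitation alone and the 29 enriched libraries had a streptavidin capture in addition. The enriched groups were APEX-NLS mock, APEX-NLS arsenite, APEX-NES mock and APEX-NES arsenite with 4 libraries each, APEX-G3BP1 mock with 6 and APEX-G3BP1 arsenite with 7. The labels do not say that replicates are separate cultures, so every p-value measures only the spread between these libraries, which may be technical.

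The deposited values were whole tag counts divided by a library total of 4662 to 2622677 tags, and they are given here per 1000000 tags of that total (CPM). The tags in TE peaks ranged from 21 to 19470 per library, and 5 libraries had fewer than 2000 tags in all peaks together. The sample descriptions name 4 library sets: JL0380 holds all fraction libraries, JL0361 holds APEX-G3BP1 only, and JL0388 and JL1024 hold all APEX lines. Fractionation, wild-type cells without an APEX reaction and set JL0380 go together. In comparisons of fraction with APEX libraries their parts therefore cannot be told apart. The hepatic markers AFP, ALB, APOB, FGB and SERPINA1 had peaks, with 13735 tags for AFP, whereas APOA1 and TTR had none. PTPRC, a leukocyte gene, had 55 tags, PECAM1 of endothelium had 5 tags and COL1A1 of fibroblasts had no peak. NEAT1, a nuclear RNA, was at 413 CPM in the nuclear and 125 CPM in the cytoplasmic mock fraction, ACTB mRNA was at 250 and 2385 CPM, and MALAT1, another nuclear RNA, was at 2561 and 2394 CPM. A tag count depends on both the amount of an RNA and its binding by HuR, and these cannot be told apart here.

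Each TE peak was 20 nt long. Only 4 of them lay inside the RefSeq promoter windows (GRCh38.p14), the one sequence source used here, and they are shown because they are the only TE peaks whose letters could be read, not for their values. Each window is written 5' to 3' on the strand of the peak, with the peak in capitals and 5 flanking bases on each side, and the table's start was taken to count from 0. The first lies at the start of PRLR (chr5:35118280-35118309, minus strand) and the second at the start of SH3BGRL2 (chr6:79631303-79631332, plus strand). The other two lie opposite to LOC105370826 (chr15:53458839-53458868, minus strand) and LOC112268231 (chr1:85621904-85621933, minus strand).
PRLR: cttttCTGTAAGATTAAAATTACTTcaaaa
SH3BGRL2: atctgCGGACCCGCCGGGAGGGAGCcagat
LOC105370826: tatttATTTGTGTGATTAGTTGATAaatga
LOC112268231: atttgTCATTTTTGTCCAGAACACAaactc

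The PRLR peak had 10 tags, the SH3BGRL2 peak 5, the peak opposite LOC105370826 24 and the peak opposite LOC112268231 9. T, read as U in RNA, made up 8, 0, 10 and 7 of the 20 peak bases in that order, and A made up 8, 3, 5 and 6. The run TTTTT, searched on the strand of the peak, occurred in the window opposite LOC112268231 and ATTTA in that opposite LOC105370826. In 30-base windows of all promoters on the strand of the gene, TTTTT occurred in 2.859% and ATTTA in 1.951%. Both windows with a hit were read opposite to the gene. There TTTTT stands for AAAAA on the strand of the gene, which occurred in 2.973%, and the opposite strand was not counted for ATTTA. These are descriptions of letters in a few windows and say nothing of the other TE peaks.

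By the further terms of their annotation, 11396 TE peaks lay in introns, 5001 lay in unannotated sequence, 626 carried a downstream 10K term but neither of these terms, and 1145 had no other gene term. Intron took precedence in this grouping, and 3045 TE peaks carried a downstream 10K term in all. The most frequent full annotation was an intron with a TE (6637 peaks, 36.5%), followed by a TE in unannotated sequence (4792 peaks, 26.4%). A retained-intron term was present for 3239 TE peaks. A further 3086 peaks carried a TE term but were grouped by the authors into other classes, 2583 of them into ncRNA and 450 into 3'UTR, and these are not counted as TE peaks here. All 9424 TE peaks whose named gene has a strand in RefSeq lay on the strand of that gene. Peaks described below that lie opposite to a gene, as at TRPM3 and LINC01507, carried no gene name and an unannotated term. The match may thus come from how names were given, and it is not read as a trait of TE peaks.

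Most TE peaks were thinly covered. The median TE peak had 8 tags in 6 of the 58 libraries, 16.8% had 5 tags or fewer, and only 147 had 100 tags or more. The 182 peaks in the top 1% held 11.25% of all TE tags, and the highest, in AFP, had 1283 tags. Intron peaks outside TEs had a median of 10 tags and 3'UTR peaks a median of 16. The median of intronic TE peaks was 9 tags and that of TE peaks in unannotated sequence was 7.

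TE peaks in unannotated sequence stood alone more often than intronic TE peaks. Another peak of any class on the same strand lay within 1000 nt for 25% of them, with a median gap of 13778 nt, against 58% and 739 nt for intronic TE peaks. Of the TE peaks with no other gene term, 19.9% had such a neighbour. The corresponding values were 70.4% and 436 nt for the intron class, and 54.4% and 753 nt for the unannotated class. These shares are counts over peaks and were not tested.

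TE peaks carried a gene name in 11318 cases, spread over 4109 genes with a median of 2 TE peaks per gene. A single TE peak was present in 1984 genes and 10 or more in 168. The genes with the most TE peaks were MIR3171HG, a long non-coding RNA host gene, with 44, SOX5, an HMG-box transcription factor gene, with 42, and THRB, which encodes a thyroid hormone receptor, GPC6, which encodes a glypican, and PLCB1, which encodes a phospholipase C, with 40 each. These genes are long, 351.4 kb for MIR3171HG and 1191 kb for GPC6, and hold many peaks of all classes. TE peaks were 6.17% of the 713 peaks of MIR3171HG, 8.57% of the 467 peaks of THRB and 3.84% of the 1043 peaks of GPC6. Per 100 kb, MIR3171HG had 12.5 TE peaks, THRB 10.6, PLCB1 5.32, SOX5 4.07 and GPC6 3.36.

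Summed over its TE peaks, MIR3171HG was at 69.9, 76.4 and 60.8 CPM in the nuclear mock libraries and at 41.5, 32.6 and 24.3 CPM in the cytoplasmic mock libraries. After arsenite the values were 75.3, 66.4 and 52.8 CPM in the nuclear and 48.4, 47.8 and 44.5 CPM in the cytoplasmic fraction. The nuclear libraries lay above the cytoplasmic ones in both treatments without overlap. PLCB1 was at 40.8, 36.4 and 49.2 CPM in the nuclear mock and at 23.2, 25.6 and 25.1 CPM in the nuclear arsenite libraries, again without overlap. THRB was at 53.8 ± 11.6 (SD, n = 3) CPM in the nuclear and 42.4 ± 16.3 CPM in the cytoplasmic mock fraction, and at 61.3 ± 15.2 and 67.4 ± 9.17 CPM after arsenite, and within each treatment the fractions differed by less than the larger SD. SOX5 was at 36.4, 22.7 and 41.5 CPM in the nuclear and 28.7, 22.4 and 22.1 CPM in the cytoplasmic mock libraries, with overlap. Its nuclear libraries lay above the cytoplasmic ones after arsenite. For GPC6 the nuclear libraries lay above in mock, and the fractions overlapped after arsenite. Of the tested intron-class peaks, 70.2% had a positive nuclear minus cytoplasmic log2 difference in mock. No test was run on these sums.

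In the fractions, the share of a library's peak tags that lay in TE peaks was lowest in the cytoplasm of mock-treated cells. It was 3.17%, 3.20% and 3.17% in the nuclear mock libraries and 2.41%, 1.89% and 1.96% in the cytoplasmic mock libraries. After arsenite it was 2.87%, 2.97% and 3.02% in the nuclear and 2.93%, 2.89% and 2.94% in the cytoplasmic libraries. The mock fractions did not overlap, whereas the arsenite fractions did. The nuclear minus cytoplasmic difference was 1.09 percentage points in mock (two-sided exact permutation p = 0.1, n = 3 and 3) and 0.0338 points after arsenite (exact p = 0.5). With 3 libraries against 3, 0.1 is the smallest p the 20 arrangements can give, and the smallest Benjamini-Hochberg value over the 15 share and ratio tests was 0.25.

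As a share of the tags in peaks, TE tags moved in opposite directions in the fractions after arsenite. In the cytoplasm the share was higher by 0.834 percentage points (exact permutation p = 0.1) and in the nucleus it fell by 0.224 points (exact permutation p = 0.1), with no overlap of treated and mock libraries in either. The difference of these effects, nuclear minus cytoplasmic, was -1.06 points, and the difference was not tested. Both signs were turned when TE tags were set against intron tags.

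The share depends on what else a library holds. The 3'UTR class took 42.3 ± 4.58% (SD, n = 3) of the cytoplasmic mock tags, 11.7 ± 0.541% of the nuclear mock tags, and 24.5 ± 0.943% and 19.2 ± 1.33% of the cytoplasmic and nuclear arsenite tags. Set against intron tags instead, TE tags ran the other way. They numbered 5.88, 5.98 and 5.84 per 100 intron tags in the nuclear mock libraries and 6.93, 6.73 and 6.85 in the cytoplasmic mock libraries, a difference of -0.938 without overlap (exact permutation p = 0.1). After arsenite the nuclear libraries were at 6.29, 6.17 and 6.29 and the cytoplasmic ones at 6.81, 6.65 and 6.60, a difference of -0.437 (exact permutation p = 0.1). Arsenite minus mock was 0.351 tags per 100 intron tags in the nucleus, without overlap (exact permutation p = 0.1), and -0.150 in the cytoplasm, with overlap (exact permutation p = 0.2). So TE tags were the larger share in the mock nucleus when counted against all peaks, and the smaller amount when counted against introns.

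Split by context, TE peaks in introns gave 4.62 ± 0.0931 (SD, n = 3) tags per 100 intron tags in the nuclear mock fraction and 5.00 ± 0.121 in the cytoplasmic mock fraction. After arsenite these values were 4.64 ± 0.0350 and 4.96 ± 0.0793. TE peaks in unannotated sequence gave 5.29 ± 0.0639 tags per 100 tags of the unannotated class in the nuclear mock and 3.96 ± 0.486 in the cytoplasmic mock fraction. After arsenite they gave 5.27 ± 0.126 and 4.93 ± 0.0851. The ratio within introns thus differed little by treatment in either fraction, and the ratio within unannotated sequence was lowest in the cytoplasmic mock libraries.

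**Figure D1:**
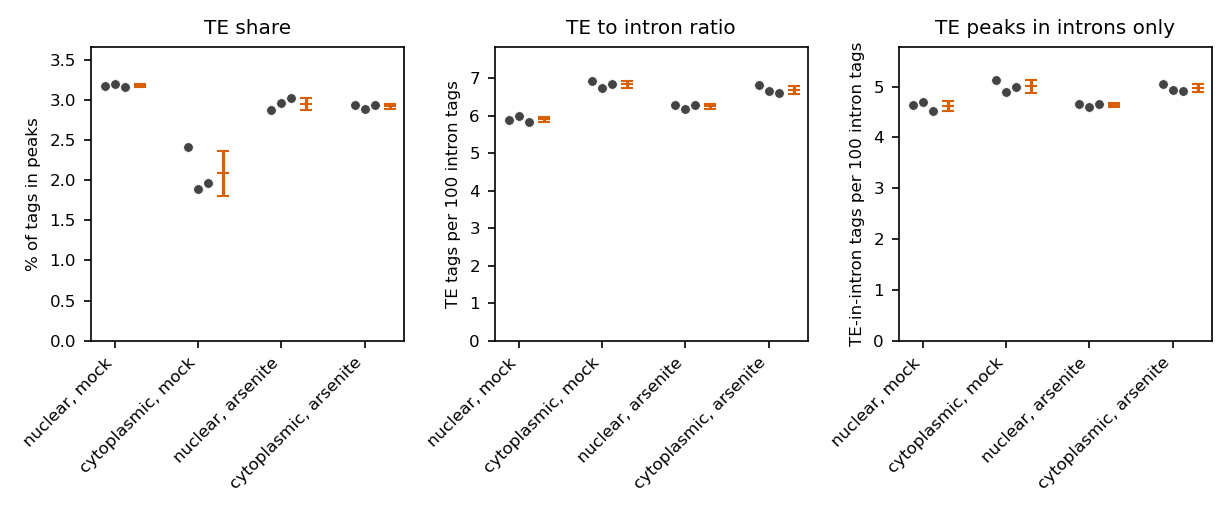
TE share (percent of a library's tags in peaks), TE tags per 100 intron tags, and tags of intronic TE peaks per 100 intron tags in the 12 fraction libraries. Points are libraries and bars the mean ± SD of 3; the cytoplasmic mock libraries are lowest in TE share, at 1.89% to 2.41%, and in the ratio to intron tags the cytoplasmic libraries, at 6.60 to 6.93, lie above the nuclear ones, at 5.84 to 6.29.

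Few single TE peaks differed between the fractions. Log2 differences below are of CPM plus a pseudocount of 2.28 CPM, tested with limma and Benjamini-Hochberg adjustment over every peak with tags in at least 3 of the libraries compared, and a peak is called at an adjusted p below 0.05. In mock cells 27 of 5156 tested TE peaks (0.524%) were called, 17 higher in the nucleus and 10 higher in the cytoplasm, where 2.82% of all tested peaks were called, 0.53% higher in the nucleus and 2.29% higher in the cytoplasm. Refitted on the same peaks, the TE calls without nuclear mock replicate 1 were 125 higher and 7 lower in the nucleus, and over all peaks the majority turned, from 833 higher and 3604 lower to 4080 and 2358. Without any other library 0 to 6 TE peaks were called. Of the 27, 14 of the 15 called intronic TE peaks were higher in the nucleus, whereas 5 of the 8 in unannotated sequence and all 4 in the other contexts were higher in the cytoplasm. The classes outside TEs ran the same way, with 393 of the 513 called intron peaks higher in the nucleus and 372 of the 451 called unannotated peaks higher in the cytoplasm. The median log2 difference was 0.15 over the tested TE peaks and 0.15 over all tested peaks. The intron class had 0.592% of its tested peaks called, close to the TE value.

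After arsenite, 12 of 8215 tested TE peaks (0.146%) differed between nucleus and cytoplasm, 6 in each direction, against 0.257% of all tested peaks, of which 0.11% were higher in the nucleus and 0.147% lower. Refitted on the same peaks without any 1 of the 6 libraries, 0 to 2 TE peaks were called. Arsenite against mock called 29 of 6615 TE peaks (0.438%) in the cytoplasm, 25 of them higher after arsenite, against 0.76% of all tested peaks. By direction, 0.378% of the TE peaks were called higher with 0.24% of all peaks, and 0.0605% were called lower with 0.52% of all peaks; the intron class had 0.231% higher and 0.0424% lower. Over all peaks 465 were called higher and 1008 lower, and this direction reversed with edgeR's TMM normalization (1155 and 690) and with a pseudocount 4 times smaller (5162 and 1600). Those settings called 52 and 201 TE peaks higher and 3 and 7 lower. On the same peaks without cytoplasmic arsenite replicate 2 it reversed too (8754 and 1111 of all peaks, 323 and 4 TE peaks), and without any other library 0 to 2 TE peaks were called. In the nucleus 1 of 6753 TE peaks was called, lower after arsenite, against 0.186% of all tested peaks, with 0.152% higher and 0.034% lower. On the same peaks without nuclear arsenite replicate 3 the direction turned, with 123 TE peaks called higher and 1 lower, and without any other library 0 were called. The interaction, that is the arsenite effect in the nucleus minus that in the cytoplasm, called 10 of 12035 TE peaks, 3 positive and 7 negative, against 0.352% of all tested peaks, with 0.318% positive and 0.0344% negative. Without any 1 of the 12 libraries it called 1 to 5 TE peaks on the same peaks. At an unadjusted p below 0.05, 660, 910, 1190, 686 and 927 TE peaks passed in these comparisons, in the order given, which is 12.8%, 11.1%, 18%, 10.2% and 7.70% of those tested. Of all tested peaks 19.6%, 11.6%, 19.1%, 11.2% and 9.27% passed, a higher share than of the TE peaks in each comparison.

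The called peaks were small. In the mock comparison they rested on 9 to 577 tags, with a median of 19, and in the arsenite comparison of the cytoplasm on 17 to 141 tags, with a median of 34. Of 32 calls on the peaks named below, none changed direction under another setting. Between groups, no called TE peak overlapped, so leaving out 1 library could not turn its direction. In edgeR's quasi-likelihood test on the recovered tags 25 remained called, and with its TMM normalization 14. Refitted on the same peaks without 1 of the 12 fraction libraries, from 1 of 15 (without nuclear arsenite replicate 3) to 8 of 17 (without nuclear mock replicate 1) of the calls that used it remained.

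The TE peak with the most tags lay in an intron of AFP (chr4:73448901-73448921, plus strand), the gene of alpha-fetoprotein, a fetal liver protein produced by many hepatocellular carcinomas. It was at 125, 135 and 124 CPM in the nuclear mock libraries and at 74.5, 67.2 and 82.2 CPM in the cytoplasmic mock libraries. After arsenite it was at 40.8, 64.0 and 52.8 CPM in the nuclear and 61.4, 48.9 and 57.7 CPM in the cytoplasmic libraries. The nuclear mock libraries were the highest without overlap, and the arsenite fractions overlapped. The nuclear minus cytoplasmic log2 difference in mock was 0.77 (SE 0.16, limma adjusted p = 0.031, edgeR adjusted p = 0.07). The peak was lower in the nucleus after arsenite, with a log2 value of -1.27 (SE 0.17, adjusted p = 0.0099 in limma), and pooled tags per library total were 2.45-fold higher in mock (95% counting interval 2.05 to 2.93). The interaction was -0.87 (limma adjusted p = 0.033), and was not called by edgeR (adjusted p = 0.55).

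The other AFP peaks did not follow the same pattern between the fractions. Their summed value was 614 ± 31.4 CPM (SD, n = 3) in the nuclear mock and 1182 ± 234 CPM in the cytoplasmic mock fraction, and 362 ± 10.2 and 497 ± 56.7 CPM after arsenite. The TE peak took 17.3% of the AFP tags in the nuclear mock fraction, 6.10% in the cytoplasmic mock fraction, and 12.6% and 10.2% in the nuclear and cytoplasmic arsenite fractions. Another intronic TE peak of AFP (chr4:73439196-73439216) was at 30.8, 21.4 and 30.6 CPM in the cytoplasmic mock and at 6.5, 10.8 and 9.04 CPM in the cytoplasmic arsenite libraries. Its log2 difference was -1.44 (SE 0.27, limma adjusted p = 0.046), with no overlap. Its nuclear values were 27.3 ± 1.10 CPM (SD, n = 3) in mock and 9.11 ± 2.87 CPM after arsenite, a log2 difference of -1.41 that limma did not call (adjusted p = 0.066) and edgeR did (adjusted p = 0.0057).

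A TE peak with no gene name on chromosome 11 (chr11:4631145-4631165, plus strand), between TRIM68 and the olfactory receptor gene OR51D1, was high in one fraction group alone. It was at 4.37, 4.55 and 1.93 CPM in the nuclear mock, 45.7, 36.7 and 41.1 CPM in the cytoplasmic mock, 0.801, 3.2 and 2.6 CPM in the nuclear arsenite and 3.61, 6.25 and 4.87 CPM in the cytoplasmic arsenite libraries. The 3 cytoplasmic mock libraries lay above all 9 others. The nuclear minus cytoplasmic log2 difference in mock was -2.91 (SE 0.29, limma adjusted p = 0.0010), an 11.6-fold ratio of pooled tags (95% counting interval 6.09 to 24.8). In the cytoplasm arsenite minus mock was -2.61 (SE 0.25, limma adjusted p = 0.0031), and mock was 8.19-fold higher (5.21 to 13.4). The interaction was 2.20 (limma adjusted p = 0.031), which edgeR did not call (adjusted p = 0.45).

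The APEX-G3BP1 libraries of set JL0361 gave these values for that peak. The arsenite input libraries had 0, 30 and 41 tags and the arsenite enriched libraries 0, 27 and 26 tags, which is 44.7 and 49.6 CPM in the last 2 of these. The mock input libraries had 0 and 3 tags (14.2 CPM for the latter) and the mock enriched libraries 0 and 3 tags (19.8 CPM for the latter), so that the mock values rest on 3 tags each. The enriched libraries of JL0388 held 2 tags and those of JL1024 held 5 tags, each over 12 libraries. The sets differ in more than treatment, and the part of the set in these values was not tested.

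Of the intronic TE peaks higher in the nucleus, the one in LGR4 (chr11:27468679-27468699, minus strand), the gene of an R-spondin receptor of the Wnt pathway, was called in both treatments. It was at 14.6, 17.3 and 13.5 CPM in the nuclear and 2.13, 3.06 and 3.16 CPM in the cytoplasmic mock libraries. After arsenite it was at 14.4, 20 and 17.3 CPM in the nuclear and 0.722, 6.82 and 3.48 CPM in the cytoplasmic libraries. The fractions did not overlap in either treatment. The log2 differences were 1.78 (SE 0.28, limma adjusted p = 0.0095) and 1.84 (SE 0.36, limma adjusted p = 0.046), and pooled tags were 5.47-fold (2.54 to 13.5) and 4.39-fold (2.57 to 7.88) higher in the nucleus. The other LGR4 peaks together were at 192 ± 25.9 CPM (SD, n = 3) in the nuclear and 181 ± 23.7 CPM in the cytoplasmic mock fraction, and 165 ± 21.9 and 150 ± 8.29 CPM after arsenite.

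Intronic TE peaks of TBL1X, which encodes a subunit of a nuclear corepressor complex, and TRA2A, which encodes a splicing regulator, had tags in all nuclear mock and none in the cytoplasmic mock libraries. The TBL1X peak (chrX:9509091-9509111) was at 2.91, 7.27 and 8.69 CPM in the nuclear mock libraries, at least 6.44-fold higher than a floor of 3 tags over the pooled cytoplasmic mock libraries. Its log2 difference was 1.84 (limma adjusted p = 0.022). The TRA2A peak (chr7:23512752-23512772) was at 7.29, 3.64 and 5.79 CPM, at least 5.09-fold higher by the same floor (log2 difference 1.75, limma adjusted p = 0.015), and had no tag in the cytoplasmic arsenite libraries. Both peaks entered the mock test through the nuclear libraries alone, a selection on the outcome that the p-values do not account for. The other TRA2A peaks ran the other way, at 130 ± 8.13 CPM (SD, n = 3) in the nuclear and 341 ± 51.8 CPM in the cytoplasmic mock fraction.

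In GLIS3, which encodes a zinc finger transcription factor, an intronic TE peak (chr9:4202411-4202431) was at 5.83, 8.18 and 4.83 CPM in the nuclear mock libraries and had 1 tag in all cytoplasmic mock libraries together. The log2 difference was 1.71 (limma adjusted p = 0.020), with an 18.3-fold ratio whose counting interval ran from 2.89 to 763. After arsenite its nuclear values were 3.2, 0.8 and 0 CPM, and the interaction was -1.95 (limma adjusted p = 0.036, edgeR adjusted p = 0.32).

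The TE peaks that were higher in the cytoplasm of mock cells lay mostly outside annotated introns. The peak at chr9:71277135-71277155, on the plus strand and opposite to TRPM3, had 1 tag in the nuclear mock libraries and was at 12.8, 11.2 and 17.9 CPM in the cytoplasmic mock libraries. It was at 6.41, 4.0 and 6.93 CPM in the nuclear and 11.6, 13.1 and 20.9 CPM in the cytoplasmic libraries after arsenite. The cytoplasmic values were above the nuclear ones in both treatments. The mock log2 difference was -2.65 (SE 0.31, limma adjusted p = 0.0023), from 1 against 40 tags, a ratio of 39.3 with a counting interval of 6.66 to 1592.

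The peak at chr9:79855814-79855834, on the minus strand and opposite to LINC01507, was at 8.51, 11.2 and 6.33 CPM in the cytoplasmic mock libraries. It was at 0.722, 1.71 and 0.696 CPM in the cytoplasmic arsenite libraries, at 0, 0.909 and 0 CPM in the nuclear mock and at 1.6, 2.4 and 1.73 CPM in the nuclear arsenite libraries. As for the chromosome 11 peak, the cytoplasmic mock libraries stood above all others. The mock nuclear minus cytoplasmic log2 difference was -2.08 (limma adjusted p = 0.0078) and arsenite minus mock in the cytoplasm was -1.71 (limma adjusted p = 0.031), a 7.98-fold lower pooled value (3.00 to 26.7). The interaction was 2.42 (limma adjusted p = 0.0019) and remained called in 30 of 32 alternative fits, all but the 2 with edgeR (quasi-likelihood adjusted p = 0.057).

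At chr1:35116083-35116103, inside the body of ZMYM1 but annotated only as TE and downstream 10K, the nuclear mock libraries were at 2.91, 2.73 and 0 CPM. The cytoplasmic mock libraries were at 10.6, 11.2 and 8.44 CPM, the nuclear arsenite libraries at 9.61, 16.0 and 8.66 CPM and the cytoplasmic arsenite libraries at 9.39, 6.25 and 6.26 CPM. The nuclear mock group was the low one. Its log2 difference to the cytoplasm was -1.66 (limma adjusted p = 0.047) and the interaction was 2.15 (limma adjusted p = 0.043, edgeR adjusted p = 0.0065).

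After arsenite the largest fraction difference among called TE peaks was in ARIH1 (chr15:72532179-72532199, plus strand, intron), the gene of a ubiquitin ligase. This peak was at 1.6, 0 and 1.73 CPM in the nuclear and 20.9, 18.8 and 16.0 CPM in the cytoplasmic arsenite libraries. In mock cells it was at 4.37, 4.55 and 9.66 CPM in the nuclear and 10.6, 9.17 and 12.7 CPM in the cytoplasmic libraries, which overlap. The arsenite log2 difference was -2.66 (SE 0.30, limma adjusted p = 0.00075), a 16.9-fold ratio of pooled tags (6.38 to 63.6). The other ARIH1 peaks were at 216 ± 12.8 CPM (SD, n = 3) in the nuclear and 224 ± 16.0 CPM in the cytoplasmic arsenite fraction, and the TE peak took 0.519% and 7.71% of the gene's tags there.

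The peak in AFG3L2 (chr18:12342985-12343005, minus strand), which encodes a subunit of a mitochondrial protease, was at 15.2, 16.8 and 14.7 CPM in the nuclear and 30.3, 40.4 and 43.8 CPM in the cytoplasmic arsenite libraries. In mock cells it was at 13.1, 14.5 and 9.66 CPM in the nuclear and 16.0, 13.2 and 16.9 CPM in the cytoplasmic libraries. The cytoplasmic arsenite libraries stood above all others. The arsenite nuclear minus cytoplasmic log2 difference was -1.17 (SE 0.22, limma adjusted p = 0.043), while arsenite minus mock in the cytoplasm was 1.19 and was called by edgeR (adjusted p = 0.0080) but not by limma (adjusted p = 0.061). This one TE peak held 41.7% to 73.7% of the AFG3L2 tags over the 4 groups.

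An intronic TE peak of TMEM245 (chr9:109070662-109070682) was at 11.6, 11.9 and 16.0 CPM in the cytoplasmic arsenite libraries and between 0.866 and 4.37 CPM in the 9 others. The nuclear minus cytoplasmic log2 difference after arsenite was -1.91 (limma adjusted p = 0.011). Arsenite minus mock in the cytoplasm was 1.64 (limma adjusted p = 0.050, just below the threshold) and the interaction was -2.10 (limma adjusted p = 0.044, edgeR adjusted p = 0.24). In TANK, whose product binds TRAF signalling proteins, an intronic TE peak (chr2:161169670-161169690) was at 1.38 ± 0.504 CPM (SD, n = 3) in the nuclear and 10.9 ± 3.16 CPM in the cytoplasmic arsenite fraction (log2 difference -1.83, limma adjusted p = 0.014). The opposite direction was called in REXO1 (chr19:1825770-1825790), which encodes an exonuclease homologue, at 9.67 ± 3.30 against 1.26 ± 1.11 CPM (log2 difference 1.77, limma adjusted p = 0.038). It was also called at chr7:11947120-11947140, a peak without a gene name, at 7.20 ± 2.88 against 0.704 ± 0.696 CPM (log2 difference 1.65, limma adjusted p = 0.042).

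Arsenite raised several TE peaks in the cytoplasm from near the detection limit. The peak at chr11:124589253-124589273, near the olfactory receptor gene OR8A1, went from 1.06, 1.02 and 1.05 CPM in mock to 21.7, 15.3 and 8.35 CPM, a log2 change of 2.31 (SE 0.33, adjusted p = 0.014 in limma) from 3 against 69 tags (14.4-fold, counting interval 4.73 to 71.6). An intronic peak of MGAT5 (chr2:134297765-134297785), the gene of a glycosyltransferase that branches N-glycans, had no tag in the cytoplasmic mock libraries and was at 10.1, 5.68 and 6.96 CPM after arsenite. This is at least 7.10-fold higher than 3 tags over the pooled mock libraries (log2 difference 2.09, limma adjusted p = 0.011). The MGAT5 peak entered this test through its arsenite libraries alone, a selection on the outcome that the p-value does not account for. The peak at chr2:171773765-171773785, between DYNC1I2 and SLC25A12, went from 0, 1.02 and 3.16 CPM to 9.39, 10.8 and 17.4 CPM (log2 difference 2.06, limma adjusted p = 0.036).

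The 4 TE peaks that fell in the cytoplasm after arsenite included those of AFP, chr11:4631145 and chr9:79855814 above. The other was an intronic peak of COBLL1 (chr2:164804091-164804111), at 8.51, 13.2 and 8.44 CPM in mock and 2.17, 0.568 and 1.39 CPM after arsenite. Its log2 difference was -1.76 (SE 0.30, limma adjusted p = 0.030), a 7.72-fold lower pooled value (3.15 to 22.7). The other COBLL1 peaks stood at 269 ± 29.3 CPM (SD, n = 3) in the cytoplasmic mock and 432 ± 3.75 CPM in the cytoplasmic arsenite fraction. In ATP2B1, the gene of a plasma membrane calcium pump, an intronic peak (chr12:89593806-89593826) had an interaction of -1.94 (limma adjusted p = 0.012), which edgeR did not call (adjusted p = 0.050, just above the threshold). It was at 2.06 ± 0.749 CPM in the nuclear mock and had no tag in the nuclear arsenite libraries, while the cytoplasm was at 0.340 ± 0.588 CPM in mock and 3.06 ± 1.02 CPM after arsenite.

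**Figure D2:**
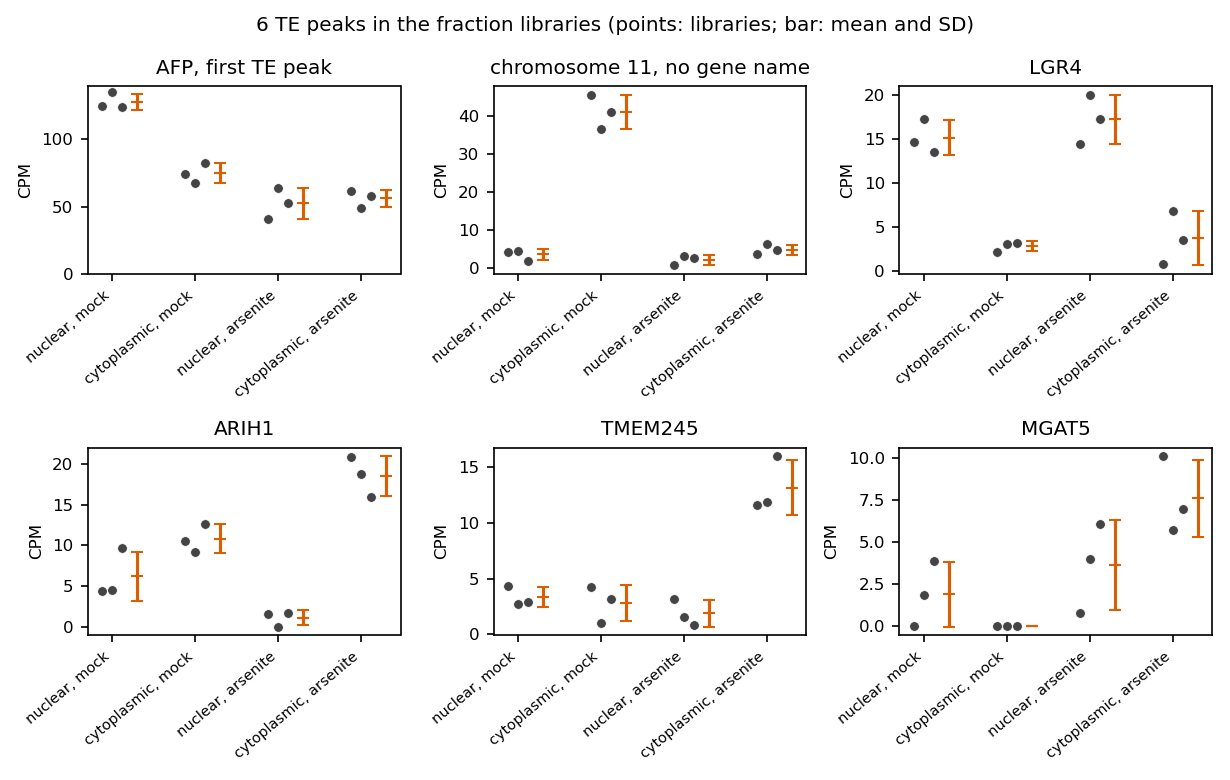
Values in CPM of named TE peaks in the 12 fraction libraries, one panel per peak, with the 4 groups on the horizontal axis. Points are libraries and bars the mean ± SD of 3; the chr11:4631145 peak is high in the cytoplasmic mock libraries (36.7 to 45.7 CPM) and the AFP peak is highest in the nuclear mock libraries (124 to 135 CPM).

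Limma called none of the other abundant TE peaks. The peak at chr5:18962942-18962962, with no gene name, was at 12.4 ± 2.72 CPM (SD, n = 3) in the nuclear mock, 15 ± 6.61 CPM in the cytoplasmic mock, 22.4 ± 2.11 CPM in the nuclear arsenite and 36.2 ± 1.16 CPM in the cytoplasmic arsenite fraction. Arsenite minus mock in its cytoplasm was 1.22 (SE 0.29), not called by limma (adjusted p = 0.068) and called by edgeR (adjusted p = 0.017). The peaks in RBM4 (chr11:66660145-66660165), which encodes an RNA-binding splicing regulator, THRB (chr3:24406596-24406616) and DCUN1D4 (chr4:51897191-51897211), which encodes a neddylation factor, were at 16.8 to 23.5, 10.9 to 22.1 and 10.5 to 20 CPM over the group means. The peak at chr13:81223363-81223383, without a gene name, was at 11.2 to 18.5 CPM. Their libraries overlapped between groups in most comparisons.

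In the APEX lines the TE share differed widely between library sets. In enriched libraries it was 8.29% to 19.0% in JL0361, 0.923% to 3.34% in JL0388 and 3.43% to 11.3% in JL1024, with means of 10.8 ± 4.59% (SD, n = 5), 2.26 ± 0.867% (n = 12) and 6.17 ± 2.58% (n = 12). JL0361 and JL0388 did not overlap. In input libraries the means were 3.45 ± 0.667% (n = 5), 2.92 ± 0.156% (n = 6) and 4.75 ± 0.688% (n = 6). Without the libraries under 2000 tags in peaks, a choice made after the values were seen, the enriched means were 8.54%, 2.18% and 6.17%. Sets also differed in the percentage of the library total that lay in any peak, which was 6.46% to 10.6% in enriched JL0361, 7.88% to 18.6% in JL0388 and 3.85% to 10.8% in JL1024, against 34.1% to 38.7% in the fractions. Its part in the TE share was not tested.

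**Figure D3:**
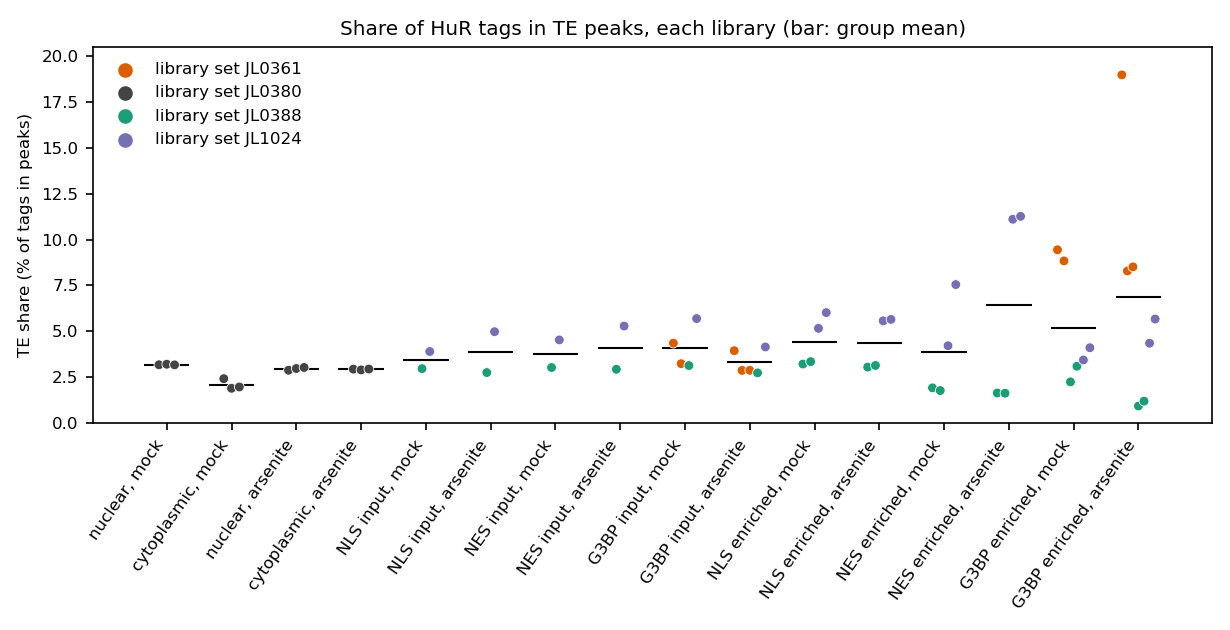
TE share (percent of a library's tags in peaks) of all 58 libraries, by group and library set. The enriched libraries of JL0388 lie between 0.923% and 3.34%, below all enriched libraries of JL0361 (8.29% to 19.0%).

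The set means of enriched libraries lay further apart for TE peaks of unannotated sequence than for intronic ones. In enriched libraries the mean share of TE peaks in unannotated sequence was 6.25% in JL0361, 0.523% in JL0388 and 2.97% in JL1024, that of TE peaks with no other gene term was 1.33%, 0.100% and 0.765%, and intronic TE peaks stood at 2.88%, 1.57% and 2.20%, with ranges that overlap between sets. In the fractions the means were 0.512% for unannotated sequence and 2.10% for introns. In input libraries, TE peaks of unannotated sequence were at 0.937%, 0.601% and 1.99% in the same order of sets, and intronic TE peaks at 2.15%, 2.15% and 2.10%. Per 100 tags of the unannotated class, they gave 36.8, 4.22 and 17.6 tags in the enriched libraries of the 3 sets. Intronic TE peaks gave 21.1, 4.37 and 9.27 tags per 100 intron tags there.

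**Figure D4:**
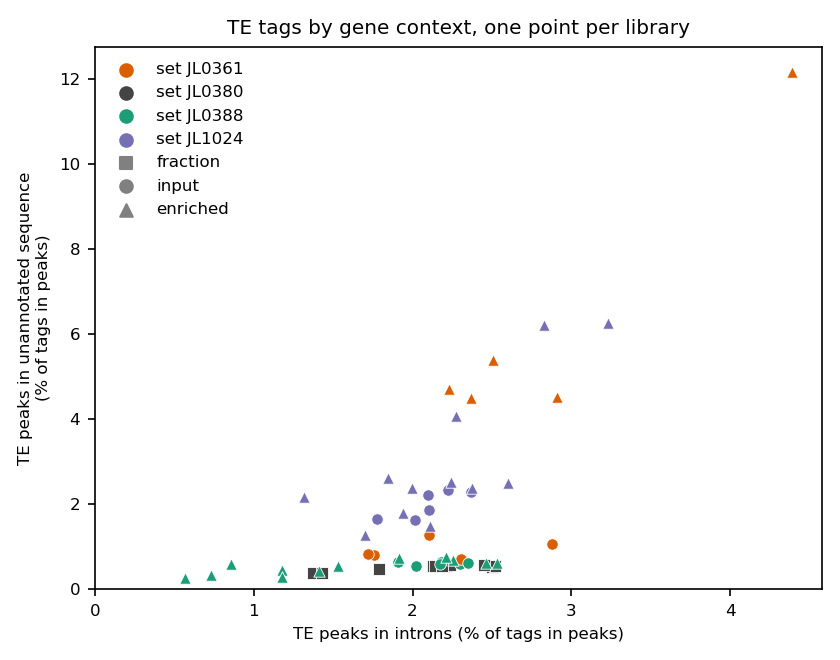
Share of peak tags in intronic TE peaks (horizontal axis, %) against that in TE peaks of unannotated sequence (vertical axis, %), with one symbol per library, coloured by library set and shaped by fraction, input or enriched. The enriched libraries of JL0361 reach a mean of 6.25% in unannotated TE peaks, against 0.523% in JL0388.

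As a share of tags in peaks, no comparison of compartments or treatments passed in the enriched libraries when sets were pooled, in a test that ignores the set. The difference had opposite signs in JL0388 and JL1024 in 6 of 7 comparisons. With 2 libraries against 2, the groups lay apart in 7 of 7 comparisons within JL0388 and in 5 of 7 within JL1024. Groups this small often lie apart without any difference, and the comparisons share groups. Counting error was not taken into account, and the APEX-NES enriched libraries of JL0388 held only 57 to 106 TE tags each. Permuting within sets gave exact permutation p-values from 0.0556, for APEX-G3BP1 minus APEX-NES after arsenite, to 0.778, and 0.0556 is the smallest that the 36 arrangements of that comparison can give. In mock cells the mean TE share was 4.43 ± 1.38% (SD, n = 4) for APEX-NLS and 3.86 ± 2.70% (n = 4) for APEX-NES, a difference of 0.574 points (exact permutation p = 0.743). Within sets the difference was 1.44 points in JL0388 and -0.291 points in JL1024. In arsenite-treated cells it was -2.06 points (exact permutation p = 0.429), with 1.46 in JL0388 and -5.58 in JL1024. APEX-G3BP1 minus APEX-NES, over JL0388 and JL1024, was -0.642 points in mock (exact permutation p = 0.771) and -3.37 points after arsenite (exact permutation p = 0.286). Within JL0388 these were 0.827 and -0.571 points, and within JL1024 -2.11 and -6.18 points. As percent of the library total, APEX-NLS minus APEX-NES was 0.220 points in mock (exact permutation p = 0.0286, the smallest that design can give) and 0.141 points after arsenite, and APEX-G3BP1 minus APEX-NES was 0.151 and 0.0523 points. This p-value is unadjusted, ignores the set and treats as separate the 2 JL0388 APEX-NLS mock libraries, which were not told apart. The measure also follows the percentage of the total in any peak. That was 16.3%, 14.1%, 6.58% and 5.93% in the APEX-NLS and 7.88%, 9.12%, 4.38% and 4.17% in the APEX-NES mock libraries.

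Arsenite minus mock was -0.0834 points in APEX-NLS (exact permutation p = 0.886), 2.55 points in APEX-NES (exact permutation p = 0.429) and 1.65 points in APEX-G3BP1 (exact permutation p = 0.625). For APEX-NES it was -0.211 points in JL0388 and 5.31 points in JL1024. For APEX-G3BP1 it was 2.79 points in JL0361, -1.61 in JL0388 and 1.24 in JL1024. In JL0361 the arsenite libraries were at 19.0%, 8.29% and 8.51% and the mock ones at 9.44% and 8.84%. The sign there rests on the first arsenite library, which had 1391 tags in peaks. Leaving out the first APEX-G3BP1 arsenite library turned the last pooled difference to -0.370 points. In JL0388, 5 pairs of enriched replicates were not told apart from sampling noise. One of them, of APEX-G3BP1 mock, had 1831 and 679 tags and was kept as 2 samples. With each of the other 4 pairs counted as 1 sample, the APEX-NLS means were 4.82 ± 1.40% in mock and 4.77 ± 1.45% after arsenite, with n = 3 each. The APEX-NES arsenite mean was then 8 ± 5.52% (n = 3) and the APEX-G3BP1 arsenite mean 7.81 ± 6.13% (n = 6), and the smallest exact permutation p of these comparisons was 0.257.

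Many TE peaks had no tag in some library sets. Of all TE peaks, 3589 (19.8%) had no tag in any of the 12 fraction libraries, against 0.775% of the intron class, 0.481% of the 3'UTR class 4.61% of the unannotated class and 10.7% of the class Other. The share was 7.97% for intronic TE peaks, 40.3% for TE peaks of unannotated sequence and 46.2% for those with no other gene term. In the reverse direction, 915 TE peaks (5.04%) had no tag in the 46 APEX libraries, against 7.37% of the intron class. TE peaks also had fewer tags per peak than the intron class, and the part of depth in these percentages was not tested.

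**Figure D5:**
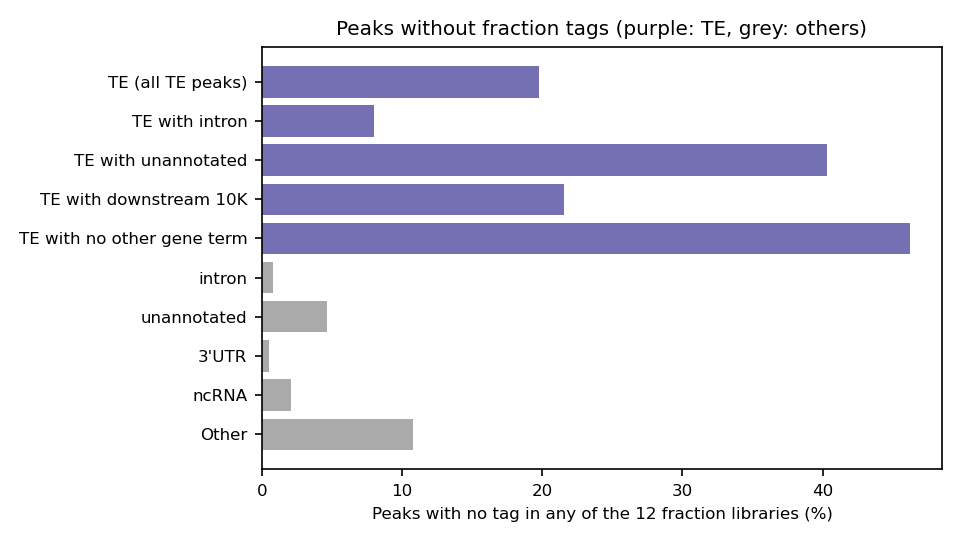
Percentage of peaks with no tag in any of the 12 fraction libraries, for TE peaks by context (purple) and for other peak classes (grey). TE peaks of unannotated sequence reach 40.3%, against 4.61% for the unannotated class.

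The following peaks were chosen after their values were seen. The TE peak with the most tags among those absent from the fractions lay at chr15:34462432-34462452, plus strand, between GOLGA8A and HNRNPLP2. It had 245 tags in 30 APEX libraries, or 11.6 CPM over their pooled total, and 0 of 13927394 tags in the pooled fractions, where 3 tags would be 0.215 CPM. This is at least 54-fold higher in the APEX libraries. The choice of peaks with no fraction tag and the most APEX tags builds in a large ratio, so the ratio is no evidence of a difference. All 6 input libraries of JL0388 held the peak, with 141 tags, and the APEX-NLS inputs of that set had 33 tags in mock and 76 after arsenite. The next such peaks were chr1:166714981-166715001 with 84 tags, chr9:20020719-20020739 with 77, chr16:23829820-23829840 with 53 and chr3:136634152-136634172 with 48. These are at least 18.5-, 17-, 11.7- and 10.6-fold higher under the same choice.

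Among TE peaks, the one with the most tags in the enriched JL0361 libraries lay in SLC26A3 (chr7:107770167-107770187, minus strand), the gene of an intestinal chloride and bicarbonate exchanger. It had 80 tags there, in 5 of 5 libraries at 33.1 to 316 CPM, where the highest values rest on 2 and 3 tags. It had 23 tags in 7 of the 12 enriched JL1024 libraries and 0 in the 18 libraries of JL0388, and 11 tags in the fractions. The peaks in ATCAY (chr19:3885103-3885123) with 58 tags, and at chr10:18625715-18625735 with 59, chr14:49536576-49536596 with 57 and chr6:141836067-141836087 with 47, were likewise at 0 in JL0388. The chr11:4631145 peak, with 56 tags in the enriched JL0361 libraries, had 2 tags in enriched and 13 tags in input libraries of JL0388. JL0361 holds the APEX-G3BP1 line alone, while JL0388 and JL1024 also contain that line.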

How the data were processed

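The authors deposited a table of signal per peak and library, with a peak score. Per the submitters' processing notes, Bowtie2, SAMtools, bedtools, HOMER and GRCh38.p14 were used; their parameters are not given in the sources used here. Each deposited signal value was a tag count divided by a library total: whole counts were recovered for 100% of values (tolerance 0.05 tags). The deposited score was used only to describe peaks. The peak list pools all libraries, and whether starts count from 0 or 1 is not stated.

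Groups came from sample titles and library sets from descriptions. Peaks were tested on log2(value + 2.28 CPM) with limma 3.58.1, with edgeR 4.0.16 on recovered counts as an alternative; two-sided exact permutation tests served for shares and ratios. Each fraction comparison used only its own groups, and the interaction all 12 libraries. The code was tested on simulated data. Intervals (95%) and the floor of 3 tags cover counting error only, since duplicate handling is not given in the sources used here.

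Named peaks were, per fraction test, the 3 most positive and 3 most negative called TE peaks without overlap, the 8 with the highest fraction mean, and the 5 genes with the most TE peaks, 1 peak per 1000 bases. Members, lists and rules were chosen with earlier results of these data known. No pairing of fraction libraries by replicate number was seen (correlations of deviations -0.00324 to 0.0107), but low counts per peak could hide one. Of 32 replicate pairs compared, 5 were not told apart, of which the 4 with at least 4000 tags per library were also counted once. Motifs of most peaks were not analysed here.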

Additional observations from a re-analysis of the deposited data

Results flagged for a closer look

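The first APEX-G3BP1 enriched arsenite library had a TE share of 19%, far from the other 6 of its group. It held 264 TE tags among 1391 tags in peaks (Wilson 95% interval 17.0% to 21.1%). Of 8 groups examined for a distant library this was the one found, with a gap of 0.58 of the range against a limit of 0.568. Chance alone marks about 1 group in 20 where all libraries come from the same population. Those of this group come from library sets with different shares, so that rate need not hold.

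The arsenite effect on the TE share, nuclear minus cytoplasmic, was -1.06 percentage points. Every treated cytoplasmic library lay above the mock ones and every treated nuclear library below them, and the difference was not tested. For the ratio to intron tags it had the opposite sign, 0.501 tags per 100, from 0.351 in the nucleus and -0.150 in the cytoplasm, where treated and mock libraries overlapped.

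The limma interaction called 7 named TE peaks whose arsenite effect differed between the fractions, and edgeR's quasi-likelihood test called 1 of these 7, at chr1:35116083. The log2 values were -0.87 for AFP at chr4:73448901, 2.20 at chr11:4631145, 2.15 at chr1:35116083, -2.10 for TMEM245, 2.42 at chr9:79855814, -1.95 for GLIS3 and -1.94 for ATP2B1.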

How the results depend on the processing

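Counts of called TE peaks moved with most settings. Of 724 alternative fits of named calls, 319 kept the call and 405 lost it. None changed direction, which leaving out 1 library could not do for a called difference between groups without overlap. Without a filter beyond 1 non-zero library the mock fraction count was 56 and the nuclear arsenite count 7. Requiring tags in every library of a group, a filter that selects on the outcome, gave 513, 584, 936, 473 and 255 (mock fractions, arsenite fractions, arsenite in cytoplasm, arsenite in nucleus, interaction). A smaller pseudocount gave 16, 5, 208 and 0 in the first 4. edgeR gave 24, 49, 5 and 2 in the last 4, and edgeR with TMM 3, 5, 55, 0 and 2 in all 5. Rescaling to tags in peaks gave 49 in the cytoplasm and 2 in the nucleus. Leaving out single libraries on the same peaks, added after the values were seen, gave 0 to 132, 0 to 2, 0 to 327, 0 to 124 and 1 to 5. With the filter lowered to 2 libraries as well, so that more peaks were tested, it gave 0 to 466, 0 to 0, 0 to 602, 0 to 304 and 1 to 5. With the replicate number as a block the counts were 19, 5, 48, 1 and 11 and the share differences were 1.09, 0.0338, 0.834 and -0.224. The numbers are not known to share more than a label. The cause of these moves was not tested.

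As percent of the library total, the arsenite fraction difference in TE share was -0.0339 points. APEX-NLS minus APEX-NES was 0.220 for mock (p = 0.0286 by exact permutation, unadjusted and with sets pooled) and 0.141 for arsenite. APEX-G3BP1 minus APEX-NES was 0.151 and 0.0523, and arsenite minus mock in APEX-NLS was 0.0244. Over peaks with at least 10 tags, APEX-NLS minus APEX-NES after arsenite was 0.177, APEX-G3BP1 minus APEX-NES in mock 0.635 and arsenite minus mock in APEX-NLS 0.176. Without libraries under 2000 tags, arsenite minus mock in APEX-G3BP1 was -0.636. Leaving out single libraries, shares ranged over 0.993 to 1.25 and -0.000573 to 0.0744 (fractions, mock and arsenite), 0.735 to 0.996 and -0.259 to -0.184 (arsenite, cytoplasm and nucleus), -0.124 to 1.80 and -3.65 to -0.438 (APEX-NLS minus APEX-NES), -1.34 to 0.587 and -4.97 to -1.76 (APEX-G3BP1 minus APEX-NES), and -0.516 to 0.444, 0.929 to 4.14 and -0.370 to 2.64 (arsenite in APEX-NLS, APEX-NES and APEX-G3BP1). The ratios to intron tags kept their direction in all 36 alternatives. The median TE peak had 8 tags; the part of depth in the calls was not tested.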
